A study of Mus musculus with 4 samples.

Results

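Genes of white and brown fat cells were followed in CD45-negative cells of mouse lymph nodes, the cells that remain once leukocytes have been removed. A list of 10 genes was used, namely Adipoq, Lep, Retn, Plin1, Cidec, Cidea, Ucp1, Pck1, Lipe and Car3, and probes were taken where the array's own gene name was one of these or the older names Plin (for Plin1) and Fsp27 (for Cidec). In all, 9 of the 10 genes had a probe, out of 27597 genes on the array, and these were read by 12 probes. Pck1, which encodes a phosphoenolpyruvate carboxykinase that supplies glycerol for fat storage, was not analysed here. The genes were chosen with earlier results of these data known.

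The gut-draining mesenteric lymph node (mLN) was compared with peripheral lymph node (pLN), both from wild-type mice of the strain C57BL/6NCrl. Nodes were digested for 30 min at 37 degrees with collagenase and CD45-negative cells were isolated with magnetic beads. Each node was taken in 2 experiments, and the 4 RNA samples were read on 4 one-colour Agilent arrays, 2 per node, with replicate 1 from experiment 1 and replicate 2 from experiment 2. The submitters call the cells stem cells, a name not examined here. The labels give no age, no number of animals and no position of the peripheral nodes, and do not say whether animals differed between experiments. P-values therefore measure only the spread between these samples.

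White fat cells hold 1 large droplet of triglyceride, coated by perilipin 1 and Cidec, and release adiponectin, leptin and resistin into the blood. Hormone-sensitive lipase breaks down the stored fat when catecholamines call for it. Brown fat cells hold many small droplets, carry Cidea on them, and burn fatty acids to heat through the uncoupling protein Ucp1 in the inner mitochondrial membrane. Lymph nodes lie embedded in fat, and in bulk RNA fewer cells of a type and less RNA per cell cannot be told apart.

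All 12 probes were 60 bases long. The probes for adiponectin, for Ucp1 and for resistin are shown because Ucp1 has the largest fold change between nodes, Adipoq the largest fitted difference between experiments, and resistin 2 probes on 1 transcript. Capitals mark the 22 bases that both resistin probes share. Positions are those of the files, on mm8.
Adipoq, plus strand of chr16:23072837-23072896: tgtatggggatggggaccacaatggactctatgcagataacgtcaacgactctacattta
Ucp1, plus strand of chr8:86187994-86188053: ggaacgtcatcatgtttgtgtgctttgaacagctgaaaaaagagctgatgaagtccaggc
Retn, probe with the higher signal, plus strand of chr8:3656107-3656928: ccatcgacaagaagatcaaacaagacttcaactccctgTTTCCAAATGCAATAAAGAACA
Retn, other probe, plus strand of chr8:3656145-3656966: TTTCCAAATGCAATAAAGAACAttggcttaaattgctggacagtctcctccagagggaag
Both resistin probes spread over 822 bases of the genome, so each crosses an intron, as does 1 of the 2 Lipe probes, and the other 9 probes lie within 60 bases. The bases G and C made up 36.7% to 55.0% of each probe.

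On the 4 arrays 74.0% to 81.1% of 41174 probes were well above background, the flag of the scanner software. The 75th percentile of the processed signal, to which each array was scaled on the log2 scale, ranged from 1686 to 1741. Genes of the node's own stroma and vessels were present, 11 of 11 listed genes being tested, with a summed signal of 711800 and 421300 in mLN and 653900 and 549700 in pLN (experiments 2 and 1, with each array's 75th percentile set to 1000). In the same units 12 leukocyte and macrophage genes summed to 5623 and 7699 in mLN and 7763 and 13520 in pLN.

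Ucp1 and Cidea, the brown fat genes, were lower in mLN than in pLN in both experiments, and Plin1 and Car3 were higher in mLN in both. Adipoq, Retn and Lipe had ratios of opposite sign in the 2 experiments, and Cidec was lower in mLN in both by less than 2-fold. Of the 8 genes that entered the test, 0 had an adjusted p under 0.05 (limma with Benjamini-Hochberg adjustment over 21392 genes), against 1.05% of all genes tested, and 3 had an unadjusted p under 0.05, against 3140 of 21392 genes. Those 3 were Plin1, Cidea and Ucp1, but Ucp1 entered the test only through pLN, where it was high, so it had to differ and its p rests on mLN signals not well above background. Lep did not enter the test, because it was not well above background on any array.

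**Figure D1:**
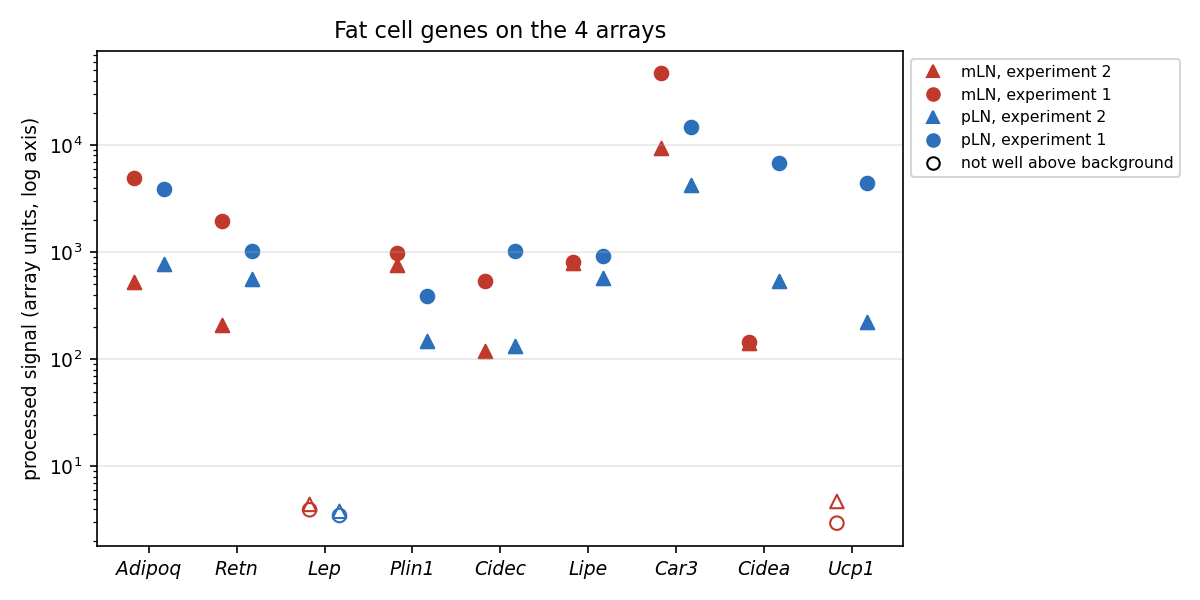
Processed signal (log axis) of 9 fat cell genes on each array, mLN in red left of pLN in blue, triangles for experiment 2 and circles for experiment 1, open symbols where the probe was not well above background. Ucp1 has open symbols in mLN and signals of 222 and 4446 in pLN, and Lep has open symbols throughout. Heights of different genes are read by different probes and are not comparable.

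Among the secreted products, adiponectin (Adipoq), the hormone that raises insulin sensitivity, had signals of 529 and 4921 in mLN and 783 and 3871 in pLN (experiments 2 and 1). The nodes overlapped, and within each node experiment 1 was the higher. The log2 fold change of mLN over pLN was −0.13 ± 1.34 (SE, n = 2 per node, limma adjusted p = 0.982). With experiment as a block, which pairs the samples, the SE was 0.28 (limma adjusted p = 0.887). Within the experiments the log2 ratio of mLN over pLN was −0.60 in experiment 2 and 0.34 in experiment 1.

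Resistin (Retn), a cysteine-rich hormone that mouse fat cells release, had 211 and 1964 in mLN and 567 and 1036 in pLN (experiments 2 and 1). The 2 mLN arrays lay on either side of both pLN arrays. Its log2 fold change was −0.27 ± 1.13 (limma adjusted p = 0.954), made of −1.46 in experiment 2 and 0.92 in experiment 1. The SE was 0.64 when experiment was a block (limma adjusted p = 0.896). The other resistin probe, which shares 22 bases with the first, had −1.54 and 0.87, so both probes turned sign between the experiments.

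Leptin (Lep), the hormone that reports fat stores to the brain, was read by 10 spots per array. Its mean signal was 4.42 and 3.93 in mLN and 3.81 and 3.48 in pLN (experiments 2 and 1). No array was well above background, so no fold is given.

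Among the droplet genes, Plin1, which encodes the droplet coat protein perilipin 1, had 763 and 983 in mLN and 149 and 389.8 in pLN (experiments 2 and 1). Both mLN arrays lay above both pLN arrays. It was higher in mLN by 3.54-fold, or 1.82 ± 0.49 on the log2 scale, and did not pass (limma adjusted p = 0.212, and 0.0997 when experiment was a block). The ratio was 4.98-fold in experiment 2 and 2.51-fold in experiment 1.

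Cidec, which encodes a protein that fuses droplets into the single large droplet of white fat, went the other way. Its signals were 119 and 542 in mLN and 134 and 1016 in pLN (experiments 2 and 1). The nodes overlapped, and the log2 fold change was −0.55 ± 1.23 (limma adjusted p = 0.905). The SE was 0.23 when experiment was a block (limma adjusted p = 0.365).

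Lipe, which encodes hormone-sensitive lipase, varied least. It had 785 and 803 in mLN and 569.5 and 916 in pLN (experiments 2 and 1). Its log2 fold change was 0.12 ± 0.26 (limma adjusted p = 0.905, and 0.862 when experiment was a block). The 2 mLN arrays lay between the pLN arrays. Its other probe had a log2 fold change of 0.02 ± 0.28.

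Car3, a cytosolic carbonic anhydrase abundant in fat cells and slow muscle, had 9327 and 46802 in mLN and 4251 and 14683 in pLN (experiments 2 and 1). It was higher in mLN by 2.14-fold in experiment 2 and 3.17-fold in experiment 1, but the mLN array of experiment 2 lay below the pLN array of experiment 1, and the log2 fold change of 1.38 ± 0.99 did not pass (limma adjusted p = 0.63, and 0.0908 when experiment was a block). A second probe, named from another cDNA and placed 5′ of the first, had 151 and 264 in mLN and 74.1 and 89.9 in pLN, with a log2 fold change of 1.27 ± 0.32. The summed signal of 13 skeletal muscle genes was 8998 and 9532 in mLN and 6584 and 6465 in pLN. Most of each sum came from Acta1, named after its values were seen (0.63 ± 0.14, limma adjusted p = 0.156). The median log2 fold change of the 13 genes was 0.08. The part of muscle RNA in the Car3 values was not tested. In that list Actn3, a fast-fibre actinin, had the largest log2 fold change (adjusted p = 0.0624) and Myh2, a fast myosin heavy chain, the smallest fitted one (−2.07 ± 0.29, adjusted p = 0.0798), Myh2 being not well above background on 1 mLN array and turning to 1.05 with normexp background.

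The brown fat genes had the largest fold changes. Ucp1 had 4.70 and 2.95 in mLN, neither well above background, and 222 and 4446 in pLN, both well above background (experiments 2 and 1). The nodes did not overlap. With mLN set, array by array, to the dimmest signal that still counted as well above background, Ucp1 was at least 63.0-fold lower in mLN. That signal is not a detection limit, because a brighter one could still be flagged as not well above background. Ucp1 did not pass (limma adjusted p = 0.122, and 0.0997 when experiment was a block). The bound holds for the scanner's own background correction: with normexp background the fitted log2 fold change was −2.23, and in the deposited value table, where low signals are set to 15, it was −5.86, both smaller than the bound. The bound was 12-fold in experiment 2 and 330-fold in experiment 1, and it was 277.9-fold without pLN replicate 2 and 14.3-fold without pLN replicate 1, so its size rests on single pLN arrays.

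Cidea, the droplet protein of brown fat, had 143 and 143 in mLN and 539 and 6780.2 in pLN (experiments 2 and 1). The mLN arrays had nearly equal signals, both below both pLN arrays. The gene was 13.5-fold lower in mLN, a log2 fold change of −3.76 ± 1.23. This did not pass (limma adjusted p = 0.289, and 0.184 when experiment was a block). With normexp background the log2 fold change was −2.17. The gene was 3.86-fold lower in mLN in experiment 2 and 47.5-fold lower in experiment 1, and the log2 fold change was −5.57 without pLN replicate 2 and −1.95 without pLN replicate 1.

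**Figure D2:**
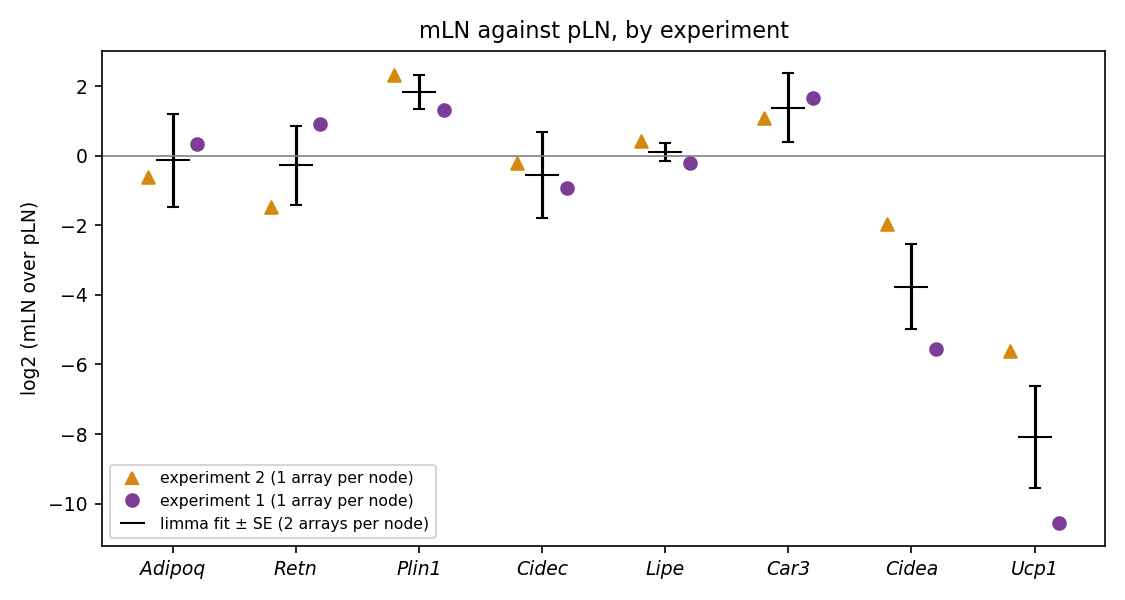
Log2 ratio of mLN over pLN for the 8 genes tested, triangles for experiment 2 and circles for experiment 1 (1 array per node each), black bars for the limma fit with its standard error (2 arrays per node). Cidea and Ucp1 lie below 0 in both experiments and Plin1 and Car3 above it; the Ucp1 points use mLN signals that were not well above background.

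Without a test, 2 of the 8 genes (Car3 and Plin1) were 2-fold or more higher in mLN in each experiment, against 2.75% of all genes, and Cidea was 2-fold or more lower, against 1.71%. Ucp1 was lower by that much too, which follows from its entering through pLN alone. Counting Ucp1 and Cidec, 3 of the 8 were lower in mLN in each experiment by any amount, against 34.9% of all genes. The median log2 fold change of the 8 genes was −0.20, beside −0.03 for all genes. Without mLN replicate 2, the log2 fold changes of Adipoq, Retn and Cidec turned to 1.47, 1.33 and 0.53. They were 1.00, 0.14 and 0.89 without pLN replicate 1. That of Lipe turned to −0.21 without pLN replicate 2. Over the 4 arrays left out in turn, Plin1 ranged from 1.15 to 2.49 and Car3 from 0.22 to 2.54.

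Signals of Adipoq, Car3 and Cidec were at least 2-fold lower in experiment 2 than in experiment 1 in both nodes, which 0.612% of all genes tested were. Signals of 6 of the 8 genes were lower in experiment 2 in both nodes, against 28% of all genes. Lipe is among the 6 by its brighter probe alone. In 5 of the 8 genes (Adipoq, Retn, Cidec, Lipe and Car3) the mean log2 difference between experiments exceeded in size the one between nodes, against 43.2% of all genes.

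Adiponectin was 9.24-fold lower in experiment 2 in mLN and 4.81-fold lower in pLN. The fitted log2 difference of experiment 2 over experiment 1 was −2.74 ± 0.28 (SE, 2 arrays per experiment with node as a term). Cidec was 4.51-fold lower in mLN and 7.40-fold lower in pLN (−2.53 ± 0.23, and −0.91 with normexp background), and Car3 4.99-fold and 3.36-fold lower (−2.03 ± 0.21). All 3 genes were lower in experiment 2 on both nodes' arrays, and none of the 3 passed the test described next.

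Resistin had signals 9.25-fold lower in experiment 2 in mLN and 1.78-fold lower in pLN (−2.02 ± 0.64, and −0.89 with normexp background). Plin1 was 1.28-fold lower in mLN and 2.54-fold lower in pLN (−0.85 ± 0.29). Lipe had 1.02-fold and 1.56-fold lower signals (−0.33 ± 0.22). Its other probe had log2 differences of 0.08 in mLN and −0.70 in pLN, so the probes differed in sign in mLN. Of these 3 genes, Lipe had the smallest difference between experiments in both nodes.

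The brown fat genes differed between experiments in pLN. Cidea was 12.2-fold lower in experiment 2 in pLN, while its mLN arrays differed by 0.01 on the log2 scale. Ucp1 was 19.5-fold lower in experiment 2 in pLN and was not well above background in mLN. Whether the 2 nodes differed in this spread could not be tested, because 4 arrays leave no degree of freedom for it.

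**Figure D3:**
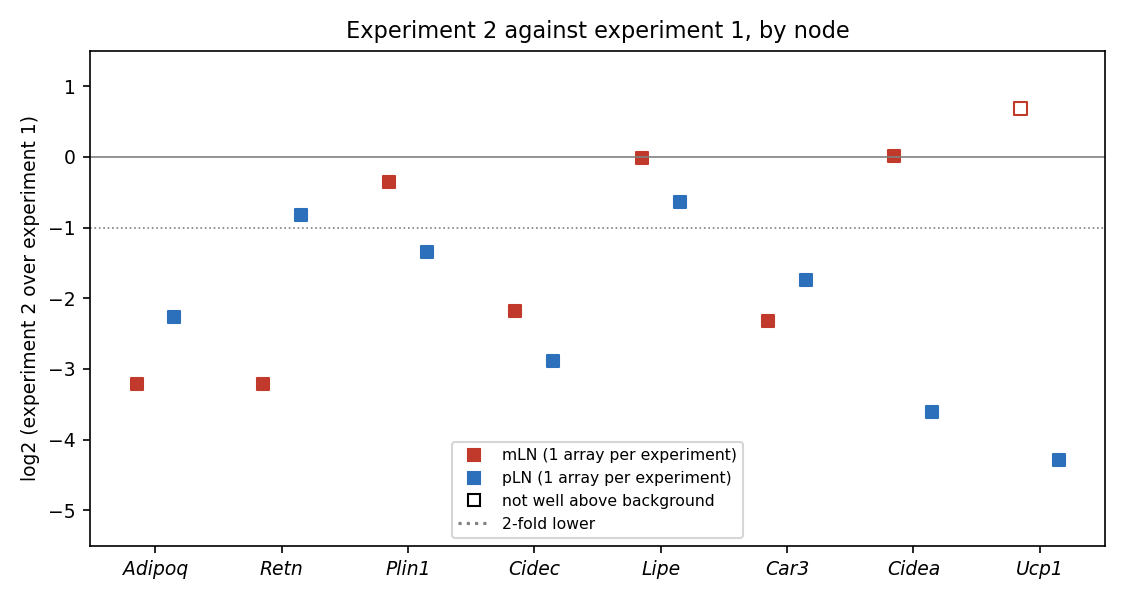
Log2 ratio of experiment 2 over experiment 1 for the 8 genes tested, mLN in red left of pLN in blue (1 array per experiment each), open where not well above background. Adipoq, Cidec and Car3 lie below the dotted 2-fold line in both nodes, while Retn does so in mLN alone and Plin1, Cidea and Ucp1 in pLN alone.

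In the test of experiment 2 against experiment 1, 0 of the 8 genes and 0% of all genes had an adjusted p under 0.05 (limma, lowest adjusted p 0.493), while 5 of the 8 and 1947 of 21392 genes had an unadjusted p under 0.05. The 5 were Adipoq, Retn, Plin1, Cidec and Car3. With an intensity trend in the variance 44 genes passed, 0.206% of those tested, and 3 of them were Adipoq (adjusted p = 0.023), Cidec (0.0262) and Car3 (0.0203). The second Car3 probe had log2 differences between experiments of −0.80 in mLN and −0.24 in pLN, against −2.32 and −1.75 by the brighter probe, so the Car3 probes disagreed in the size of the difference.

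Genes of the pancreas, a tissue near the mesenteric node, were also lower in experiment 2. The summed signal of 11 pancreatic acinar genes in mLN was 430900 in experiment 2 and 1168000 in experiment 1, and in pLN it was 1224 and 24820. At least 2-fold lower in experiment 2 in both nodes were 10 of the 11, against 0.612% of all genes. In that list Cela2a, an elastase gene, had the largest and Ctrb1, a chymotrypsinogen gene, the smallest log2 fold change of mLN over pLN (10.15 ± 3.32 and 5.71 ± 1.08), Cela2a being not well above background on 1 pLN array. Of the 11 genes, 4 had at least 1 pLN array not well above background, so their ratios there rest in part on unmeasured signals. The leukocyte genes did not share one direction between experiments: 5 of 12 were lower in experiment 2 in both nodes, against 28% of all genes. The list medians were −0.12 in mLN and −0.42 in pLN, and most of the difference in their sum came from Lyz2 and S100a8. Between the nodes S100a8, a neutrophil calcium-binding protein, had a log2 fold change of −2.38 ± 0.51 (limma adjusted p = 0.15, and 0.0251 when experiment was a block), whereas Cd8a, of T cells, had a log2 fold change of 1.11 ± 0.18. Among 4 liver and kidney genes tested, Tat, a liver aminotransferase, had 0.18 ± 0.14 and G6pc, the liver glucose phosphatase, −0.37 ± 0.30. The part of these tissues in the fat gene values was not tested.

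**Figure D4:**
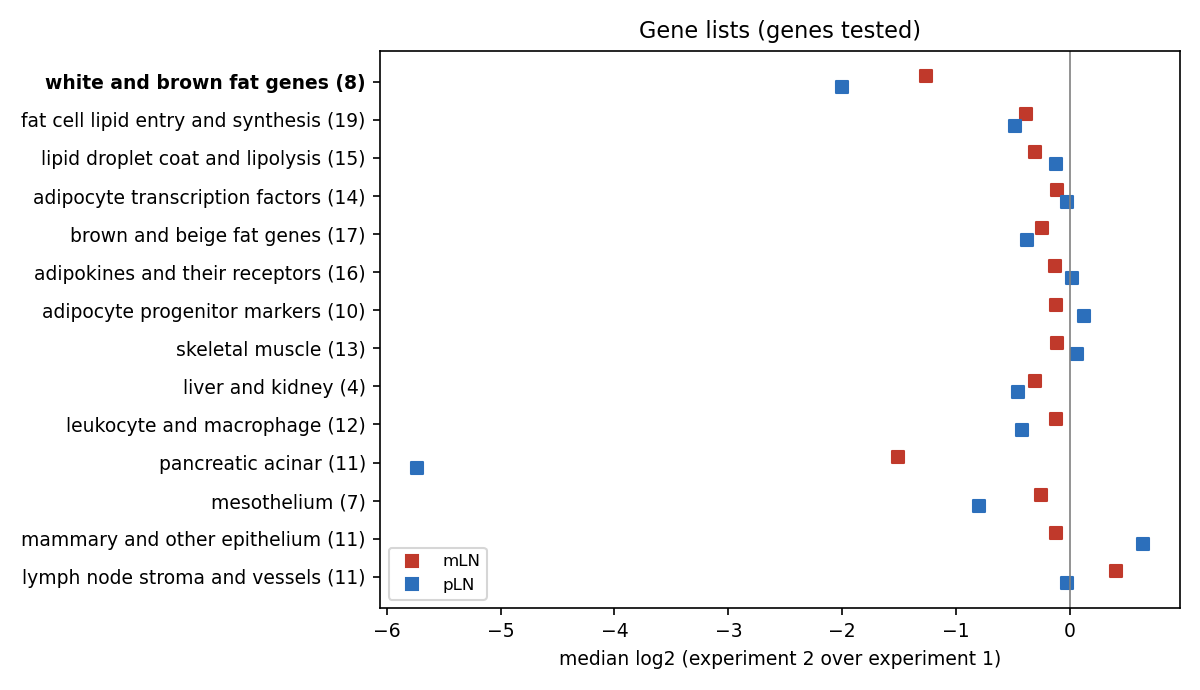
Median log2 ratio of experiment 2 over experiment 1 in each gene list, mLN in red and pLN in blue, with the number of genes tested in brackets. The white and brown fat genes have medians of −1.27 in mLN and −2.01 in pLN; the pancreatic acinar list is the other one below −1 in both nodes.

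Mesothelium, the cell layer that covers abdominal organs, had 6 of 7 listed genes called higher in mLN, against 0.776% of all genes. Of these, Wt1 and Bnc1 had 0 pLN arrays well above background. They entered the test through mLN alone, where they were high, so they had to differ. Lrrn4 and Upk1b had only 1 such pLN array each, so their calls rest in part on unmeasured signals. The 7 genes summed to 29960 and 40440 in mLN and 4891 and 3452 in pLN (experiments 2 and 1). Nearly all of the pLN sum came from Krt19, a simple epithelial keratin, with processed signals there of 8179 and 5832. Upk3b, a uroplakin, had 19.7 and 18.4 there and the largest log2 fold change (9.62 ± 0.15, limma adjusted p = 0.00265). Krt19 had the smallest (1.11 ± 0.29, limma adjusted p = 0.205). Mammary and other epithelial genes summed to 6139 and 8509 in mLN and 20120 and 12230 in pLN, from the casein gene Csn2 (4.36 ± 0.14, adjusted p = 0.00697) to the casein gene Csn3 (−6.91 ± 0.57, adjusted p = 0.0252). In the stroma and vessel list, Madcam1, an addressin, had 1.64 ± 0.41 (adjusted p = 0.191) and Prox1, a lymphatic endothelial factor, −0.85 ± 0.25 (adjusted p = 0.247).

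The genes whose pattern over the 4 arrays lay closest to that of Adipoq included fat cell genes. The measure was the root mean square difference of log2 values, each gene centred on its own mean. Adig, which encodes adipogenin, a small protein of fat cells, was closest of all genes tested (0.25), with signals of 13.8 and 99.1 in mLN and 19.4 and 126 in pLN (experiments 2 and 1). Its mLN signal of experiment 2 was not well above background, so its distance is approximate. Cidec was the third (0.48), and 3 cDNAs known by accession alone made up the 5, of which 2 were also not well above background on 1 mLN array. Retn stood 8th and Car3 96th, whereas Lipe stood 3316th and Plin1 13442nd.

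For Cidea, the closest included another brown fat gene. Cox8b, which encodes a cytochrome oxidase subunit of brown fat and muscle, was second (0.33), with 221 and 309.7 in mLN and 617 and 9594 in pLN. The others were Mup6 (0.27), Mup5 (0.42) and Mup4 (0.73), genes of major urinary proteins that are near-identical and may share probes, and 1 probe without a gene name. In mLN, neither array of Mup6 and of that probe was well above background, nor was 1 of Mup5, so these distances are approximate. Ucp1 is given no rank here, its mLN signals being not well above background. The liver genes Alb, Apoa1 and Ttr were not well above background on both arrays of either node. The 4 tested genes of the liver and kidney list, Tat and G6pc among them, were well above background on all 4 arrays. The part of liver RNA in these values was not tested. With 4 arrays the measure describes these samples and says nothing of shared control.

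**Figure D5:**
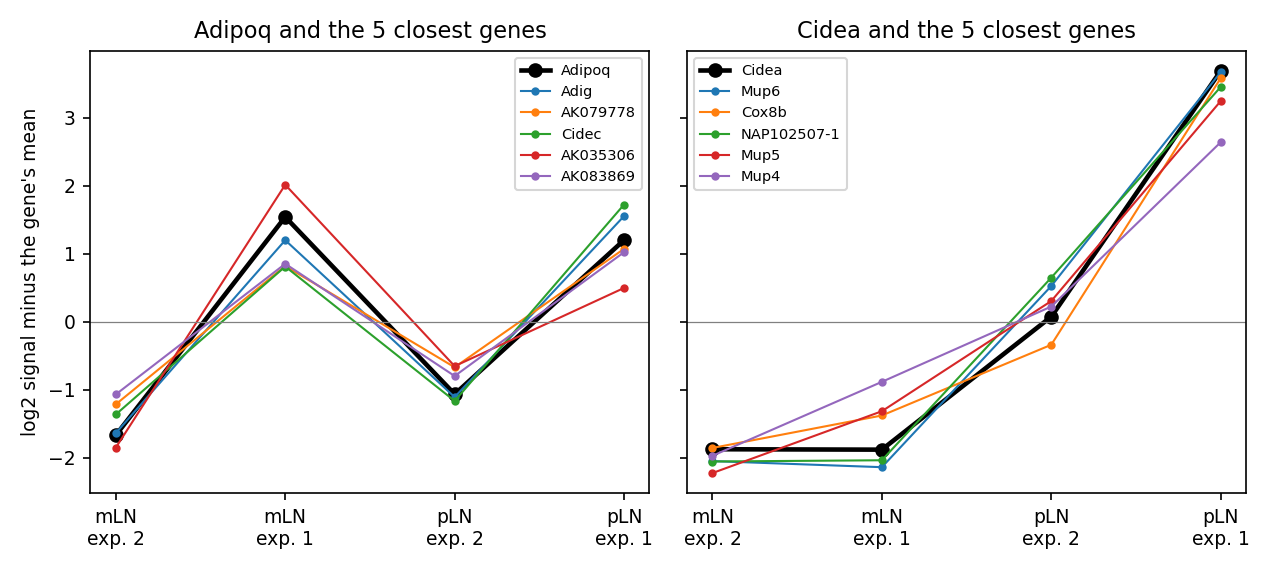
Log2 signal minus the gene's own mean on each array, for Adipoq (left) and Cidea (right) in black with the 5 closest genes. Adipoq and its neighbours are low in experiment 2 and high in experiment 1 in both nodes, while Cidea and its neighbours peak on the pLN array of experiment 1.

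Among 17 other genes of brown and beige fat tested, of 22 listed, 1 was called higher and 0 lower in mLN, against 0.776% and 0.276% of all genes, and their median log2 fold change was −0.22. The called gene was Mpzl2, which encodes an adhesion protein of brown fat and epithelium, with signals of 1033 and 1277 in mLN and 303 and 361 in pLN (1.77 ± 0.18, limma adjusted p = 0.0429). The call ended without a filter on dim probes (limma adjusted p = 0.122) and with the mean of its probes (0.0641). It also ended without any 1 of the 4 arrays, the log2 fold change then ranging from 1.63 to 1.92. Normexp background ended it too (0.69), but that setting, like leaving out either pLN array, ended the calls of all genes.

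The 3 genes of the brown list with the largest fold changes were lower in mLN and did not pass. Cox8b had a log2 fold change of −3.24 ± 1.34 (limma adjusted p = 0.391). Slc27a2, a fatty acid transporter and acyl-CoA synthetase, had 7.12 and 8.72 in mLN, neither well above background, and 27.8 and 75.9 in pLN (limma adjusted p = 0.134). Slc27a2 entered the test through pLN alone, where it was higher, so it had to differ in this direction. With normexp background its log2 fold change turned to 1.16. Cited1, a transcriptional co-regulator used as a beige fat marker, had 589.5 and 630.1 in mLN and 4220.4 and 2540 in pLN (−2.45 ± 0.29, limma adjusted p = 0.0572). Its adjusted p was 0.0392 with median scaling, 0.0229 with an intensity trend and 0.0476 among genes well above background on all 4 arrays. It was 0.141 without a filter on dim probes and 0.69 with normexp background. Unlike Ucp1 and Cidea, Cited1 was higher in experiment 2 in pLN.

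Further genes of that list were named after their values were seen. Cox7a1, a cytochrome oxidase subunit, had 428 and 493 in mLN and 531 and 2987 in pLN (experiments 2 and 1). Fabp3, a fatty acid binding protein of muscle and brown fat, had 276 and 329 in mLN and 161 and 740.2 in pLN. Ppargc1a, the co-activator of mitochondrial genes, had 57.1 and 120 in mLN and 112 and 112 in pLN, so it did not share the peak. In the other direction, Fgf21 was higher in mLN in both experiments (1.93 ± 0.24, limma adjusted p = 0.0652), a larger change than that of Mpzl2. Kcnk3 and Dio2 were also higher in both (1.11 ± 0.34 and 1.02 ± 0.57, limma adjusted p = 0.264 and 0.523). Of the 17 genes tested, 6 were higher and 8 lower in mLN in both experiments, against 28% and 34.9% of all genes. The 8 include Slc27a2, which entered through pLN alone and so had to be lower.

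Of 19 genes of lipid entry and synthesis tested, 0 were called between the nodes, against 1.05% of all genes, with a median log2 fold change of −0.12. At least 2-fold lower in experiment 2 in both nodes were 4 of the 19, against 0.612% of all genes. Those 4, named after their values were seen, were Gpd1, Dgat2, Thrsp and Aqp7. Gpd1, which makes the glycerol phosphate of triglyceride, had 216 and 1056 in mLN and 634 and 5655 in pLN (experiments 2 and 1), with a log2 fold change of −2.01 ± 1.32 (adjusted p = 0.594). Dgat2, which adds the last fatty acid to triglyceride, had −1.05 ± 0.56 (adjusted p = 0.502), and Mrap, a melanocortin receptor accessory protein found in fat, 1.29 ± 0.80 (adjusted p = 0.572). Fabp4, also named after its values were seen, a fatty acid binding protein of fat cells that capillary endothelium also makes, had 208989 and 347739 in mLN and 278805 and 352467 in pLN, a smaller spread between experiments than that of Adipoq.

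Of 15 other genes of droplet coat and lipolysis, 0 were called, against 1.05% of all genes (median 0.11). The largest fold changes were those of Cideb, the liver member of the Cidea family (1.43 ± 0.54, limma adjusted p = 0.348, with 1 pLN array not well above background), Plin5, a droplet coat protein of oxidative tissue (−0.87 ± 0.39, adjusted p = 0.429), and Pnpla2, the lipase that removes the first fatty acid (−0.62 ± 0.23, adjusted p = 0.333). None of the 15 was at least 2-fold lower in experiment 2 in both nodes, against 0.612% of all genes.

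Of 14 transcription factors of fat cell formation tested, 0 were called, against 1.05% of all genes (median −0.03). At least 2-fold lower in experiment 2 in both nodes were 0 of the 14, against 0.612% of all genes. Pparg, the nuclear receptor that drives fat cell formation, had 4608 and 9935 in mLN and 14061 and 16102 in pLN (experiments 2 and 1), and both mLN arrays lay below both pLN arrays (−1.17 ± 0.40, limma adjusted p = 0.301). Mlxipl, a carbohydrate-sensing factor, had −1.03 ± 0.45 (adjusted p = 0.418), and Ebf2, a factor of fat precursors, 0.78 ± 0.36 (adjusted p = 0.446).

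Of 16 adipokine and receptor genes tested, 0 were called, against 1.05% of all genes (median 0.09). Cfd, which encodes adipsin, a serine protease secreted by fat cells, had 855 and 8857 in mLN and 4652 and 19248 in pLN (experiments 2 and 1). Cfd was the 1 gene of the list at least 2-fold lower in experiment 2 in both nodes, against 0.612% of all genes. Its log2 fold change was −1.80 ± 1.33 (limma adjusted p = 0.642). Agt, which encodes angiotensinogen, and Rbp4, the retinol carrier of blood, were higher in mLN on every array without passing (1.57 ± 0.31 and 1.44 ± 0.30, adjusted p = 0.136 and 0.143).

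Of 10 markers of fat cell precursors, 1 was called higher and 0 lower in mLN (median 0.19), against 0.776% and 0.276% of all genes. Dlk1, whose product holds precursors back from becoming fat cells, had 1463 and 1780.1 in mLN and 291 and 274 in pLN (experiments 2 and 1) (2.49 ± 0.17, limma adjusted p = 0.0161). The call ended without either pLN array (adjusted p = 0.138 and 0.152), without a filter on dim probes (0.0573) and with normexp background (0.69). Dpp4, a surface peptidase of early precursors, had a log2 fold change of 1.88 ± 0.33 (adjusted p = 0.117, and 0.0329 when experiment was a block). Pi16, a peptidase inhibitor of the same cells, had 7250.1 and 26712 in mLN and 3312 and 7356 in pLN (1.47 ± 0.75, adjusted p = 0.484), and it was at least 2-fold lower in experiment 2 in both nodes, as Adipoq was.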

How the data were processed

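RNA of 2 mLN and 2 pLN samples was hybridised to 1-colour arrays. The deposited intensity values came from Agilent Feature Extraction 9.5.3.1, which subtracted the background and removed spatial trends, per the file headers. Other columns of the deposited files flag, as 0 or 1, spots well above background, saturated or outlying. All arrays lay on 1 slide scanned once, per the file headers, so slide and scan could not be estimated.

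Control spots and outlier spots were left out, spots of a probe averaged, log2 taken and each array's 75th percentile subtracted. Of 41174 probes, 31883 entered, being well above background on both mLN or both pLN arrays. Each gene was represented by its brightest entering probe, which left 21392 genes. Symbols were updated with a RefSeq table of GRCm38, used for names alone. The nodes were compared with limma 3.58.1 (R 4.3.3) without a block, and the experiments with node as a term, with Benjamini-Hochberg adjustment over all genes, and the fits were tested on simulated data. An exact permutation of 2 against 2 arrays cannot go below p = 0.333.

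The numbers of the experiments pair the samples, since the design text speaks of independent approaches. The log2 ratios of experiment 2 over experiment 1 in mLN and in pLN had r = 0.246 across genes. The block result is printed for each fat cell gene tested and, for other named genes, where it changed a call.

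Members, lists, tests and alternatives were chosen with earlier results of these data known. Named genes were the members, each list's called genes and its 3 largest changes, the 5 genes closest to Adipoq and to Cidea, and the extremes of each marker list. Genes named outside this rule are marked where they appear or listed here. Those listed here are Lyz2, Alb, Apoa1, Ttr, Wt1, Bnc1, Lrrn4 and Upk1b.

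A deposited value table, of intensity with each column's 75th percentile at 1500, a floor of 15 and column medians from 161 to 172, was used as an alternative. Its scale is linear, and 99.7% to 99.8% of its values over 15 lay within 0.01 (log2) of the scanner signal times 1 factor per array, found from the values. Its values at the floor differ from the scanner signals.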

Additional observations from a re-analysis of the deposited data

Results flagged for a closer look

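For 3 of the 8 fat cell genes tested, the ratio of mLN over pLN had opposite signs in the 2 experiments, against 37.1% of all genes tested. Adipoq had log2 ratios of −0.60 in experiment 2 and 0.34 in experiment 1. Retn had −1.46 in experiment 2 and 0.92 in experiment 1. Lipe had 0.43 in experiment 2 and −0.20 in experiment 1. Each ratio rests on 1 array per node, and the difference between experiments was not tested.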

How the results depend on the processing

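No fat cell gene passed between the nodes in any of the 13 alternatives run, and Plin1, Car3, Cidea and Ucp1 kept their direction in each that gave a value. The count over all genes was 225, and became 0 with normexp background, 354 with median scaling, 44 without a filter on dim probes and 441 with an intensity trend. It ranged from 0 to 190 with 1 array left out, being 0 without either pLN array. With the experiment as a replicate block it was 333, no fat cell gene passed, and Dpp4, S100a8 and Ctrb1 did. Between experiments the count was 0, and 44 with an intensity trend.

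With normexp background the log2 fold change turned for Adipoq (0.28), Retn (0.76), Cidec (0.64), Plin5 (0.59), Mlxipl (0.75), Slc27a2 (1.16), Myh2 (1.05) and G6pc (0.84). For other genes the linear ratio of mLN over pLN, rather than its log2, moved by over 1.5 times without turning. These were, with log2 values, Ucp1 (−2.23), Cidea (−2.17), Cox8b (−2.09), Gpd1 (−1.01), S100a8 (−1.37), Cela2a (7.79), Upk3b (7.24), Csn2 (3.48) and Csn3 (−4.37). Between experiments the linear ratio moved so for Retn (−0.89), Cidec (−0.91), Cidea (−0.59) and Ucp1 (−0.04), and for Car3 with the mean of its probes (−1.28). In the deposited value table the linear ratio of mLN over pLN moved so for Ucp1 (−5.86), Slc27a2 (−1.43) and Cela2a (9.17). With 1 array left out the values ranged from −1.74 to 1.47 for Adipoq, −1.88 to 1.33 for Retn, −2.00 to 0.89 for Cidec, −0.21 to 0.44 for Lipe and −0.76 to 0.020 for G6pc. They turned for Adipoq, Retn and Cidec without mLN replicate 2 (1.47, 1.33 and 0.53) or pLN replicate 1 (1.00, 0.14 and 0.89), for G6pc without pLN replicate 1, and for Lipe without pLN replicate 2. The cause was not tested. With 2 arrays per node, signals near background, such as those of Lep and of Ucp1 in mLN, limit what can be compared.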
